A study of Mus musculus with 24 samples.

Results

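Forced intracellular Notch1 was compared with the empty vector in T6E cells whose own Notch cleavage was blocked. T6E cells are a line of mouse T-cell leukaemia that depends on Notch1 for growth. The comparison takes 6 of the 24 arrays of the series, chosen by their titles: 3 of ICN1-GSI cells and 3 of MigR1-GSI cells. ICN1-GSI cells carried intracellular Notch1 and were kept for 6 hours with 1 uM Compound E, which inhibits gamma-secretase (a GSI). MigR1-GSI cells carried the empty MigR1 vector and received the same inhibitor for the same time. A further 9 arrays enter as points of comparison, with 3 in each group. R1984A-GSI cells carried an intracellular Notch1 described as defective in dimerization and received GSI, and ICN1-DMSO and MigR1-DMSO cells carried ICN1 or the empty vector and received DMSO, the solvent, for 6 hours. The remaining groups, titled DNMAML-DMSO, DNMAML-GSI and R1984A-DMSO, served only for the choice of probe sets and the shared estimate of spread in the fit. All groups are the same leukaemia line, so each also holds the line's own Notch1. The labels do not say whether a construct was carried by 1 clone or by a pool, or whether the 3 samples of each group were separate cultures. The p-values therefore cover only how far these samples spread, and that spread may be technical. In such bulk samples, fewer cells of a type and less RNA per cell cannot be told apart.

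Notch receptors are cleaved after ligand binding, and gamma-secretase makes the last cut, which frees the intracellular part. That part enters the nucleus, binds the DNA-binding protein RBPJ together with a Mastermind-like coactivator, and switches on target genes. ICN1 is the part that the cut would free, so it needs no gamma-secretase, while GSI withdraws the signal of the cell's own receptor. In T-cell leukaemia this pathway is known for driving Myc and cell growth, and in the thymus it directs precursors into the T lineage.

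RNA was measured on Affymetrix Mouse Gene 1.0 ST arrays, whose probe sets read fragments along each transcript. The deposited values are on a log2 scale, so a difference of 1.00 is a doubling, and 1 probe set was kept for each of 19938 genes. Levels on this scale compare samples for 1 gene, not genes with each other. Array medians over all probe sets lay between 3.90 and 4.18 and serve as a guide to background. In all 8 groups replicate 3 had the highest array median (4.05 to 4.18, against 3.90 to 4.07 in replicates 1 and 2). Arrays of a group correlated across genes with r of 0.987 to 0.992 in ICN1-GSI and 0.982 to 0.993 in MigR1-GSI. All 7 measured T-cell markers, Cd3e among them, stood above the highest array median in ICN1-GSI and in MigR1-GSI. Of the markers of other cells, 0 of 5 for B cells, 0 of 6 for myeloid cells, 0 of 3 for erythroid and megakaryocyte cells and 0 of 4 for natural killer cells did so in either group. The mast cell list had 1 of 4 members above it (Cpa3) and the list for stroma and epithelium 4 of 6. Called between both groups were Cpa3 (difference -2.33), Pecam1 of the stroma and epithelium list (-1.16, SE 0.18, adjusted p = 0.000278) and Ptcra of the T-cell list (0.66). Pecam1 lost its call in a fit of only the groups compared (adjusted p = 0.0545). The mean log2 level of the mast cell list was 3.17 to 3.52 in ICN1-GSI and 3.85 to 3.98 in MigR1-GSI, and that of the stroma and epithelium list 4.37 to 4.47 in ICN1-GSI and 4.54 to 4.72 in MigR1-GSI. The part of such cells in the results was not tested.

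The Notch1 probe set, read as a check of the labels, was at 7.39, 7.26 and 7.30 in ICN1-GSI, against 5.73, 5.62 and 5.63 in MigR1-GSI. The arrays did not overlap, and the difference was 1.65 (SE 0.13, adjusted p = 1.83e-08). Whether that probe set reads the construct, the cell's own Notch1 or both cannot be told apart. The partners of the Notch complex were not called. Maml1, a Mastermind-like coactivator, was at 4.32, 4.80 and 4.88 in ICN1-GSI, against 4.43, 4.39 and 4.17 in MigR1-GSI (difference 0.34, SE 0.13, adjusted p = 0.241). Rbpj, the DNA-binding partner, differed by -0.45 (SE 0.19, adjusted p = 0.353), with overlapping arrays.

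In ICN1-GSI cells 13 of 34 listed Notch targets, the recombinase genes Rag1 and Rag2 and 11 of 53 genes of ribosome biogenesis stood above MigR1-GSI. The 13 include Notch1, the gene of the construct. The lists were chosen with earlier results of these data known, so these counts are descriptions. Lower in ICN1-GSI were 9 of 37 T-lineage genes (3 were higher), 3 of 24 receptors of migration and the T-cell receptor adaptor Grap2. A gene was called when its Benjamini-Hochberg adjusted p in a limma fit over all 24 arrays was under 0.05. By this rule 469 of 19938 genes (2.35%) differed, 255 higher in ICN1-GSI (1.28%) and 214 lower (1.07%). Among the higher genes, 65 differed by more than 2-fold and 11 by more than 4-fold. Among the lower genes, 56 and 6 did so. The median log2 difference was 0.72 in the higher genes, -0.74 in the lower genes and -0.01 over all genes. The 3 arrays of one group all lay above the 3 of the other in 254 of the 255 higher and 213 of the 214 lower genes, and in 12.3% of all genes. In 30 of the higher genes the MigR1-GSI mean was at or below the highest array median, and in 20 of the lower genes the ICN1-GSI mean was. For those genes the size of the difference is uncertain. Which direction held more genes was not stable, since the counts became 154 higher and 197 lower without ICN1-GSI replicate 1, and 158 higher and 208 lower without MigR1-GSI replicate 3.

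**Figure D1:**
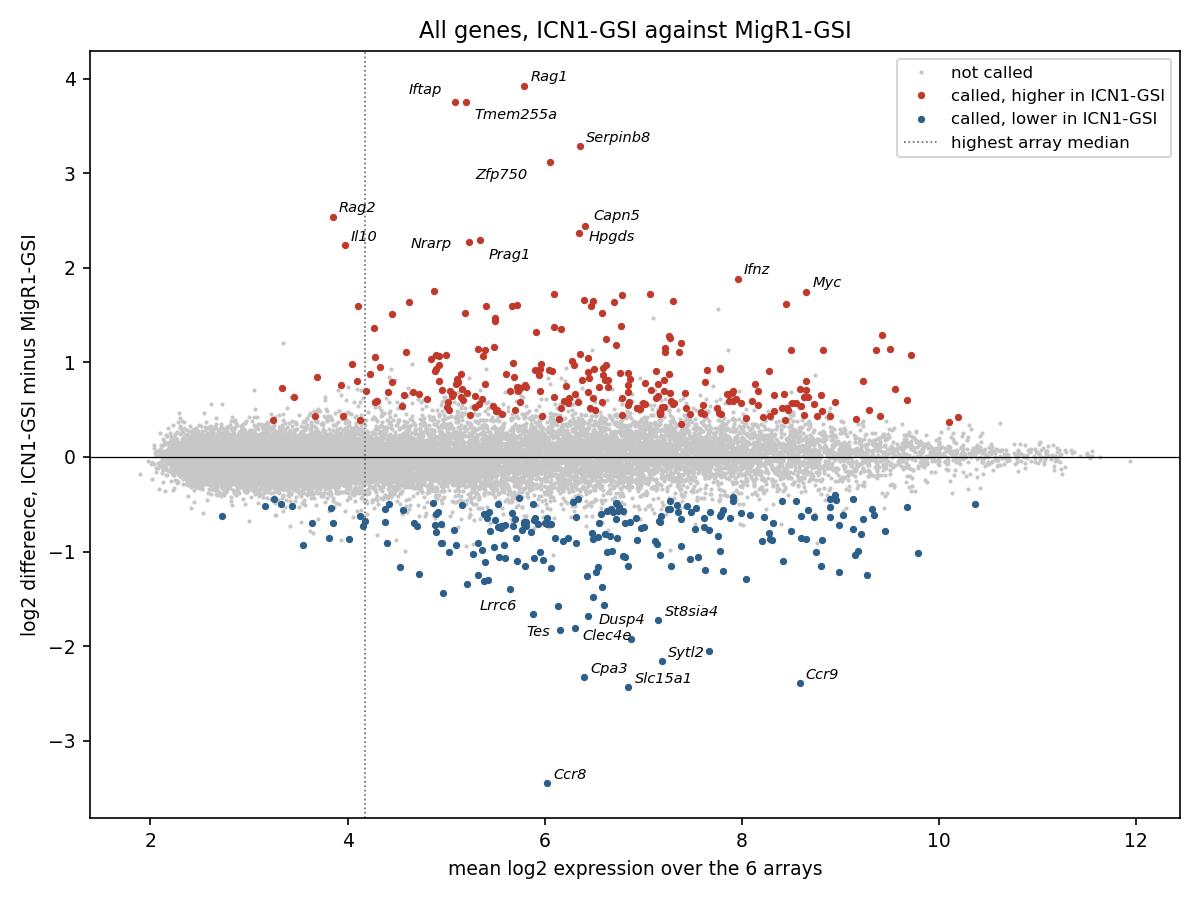
Log2 difference between ICN1-GSI and MigR1-GSI (vertical axis) against the mean log2 expression over the 6 arrays (horizontal axis), 1 point per gene, with the 255 genes called higher in red and the 214 called lower in blue. Rag1 (3.93), Iftap (3.75) and Tmem255a (3.75) stand highest and Ccr8 (-3.45) lowest, and the dotted line marks the highest array median (4.18).

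Of 34 measured genes in a list of Notch targets, ICN1-GSI had 13 at a higher and 4 at a lower level than MigR1-GSI, against 1.28% and 1.07% of all genes. The members were chosen with earlier results of these data known, so this share is a description and not a test. The list's median log2 difference was 0.07, so the targets did not move as one. The 13 were Nrarp, Dtx1, Hes1, Hey1, Notch1, Notch3, Myc, Il2ra, Ptcra, Runx1, Trib2, Deptor and Fjx1. Notch1 is the gene of the construct and served as a check of the labels, so its rise cannot be read as a target's response.

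Genes that act back on the Notch signal came first in that list. Nrarp, which binds the Notch complex and inhibits it, was at 6.33, 6.35 and 6.43 in ICN1-GSI, against 4.0, 4.10 and 4.17 in MigR1-GSI. The arrays did not overlap, and the difference was 2.28 (SE 0.11, adjusted p = 3.45e-12), with the MigR1-GSI arrays among the array medians. Dtx1, a ubiquitin ligase that binds Notch, was at 6.74, 7.0 and 7.11 in ICN1-GSI, against 5.42, 5.07 and 5.21 in MigR1-GSI (difference 1.72, SE 0.21). The basic helix-loop-helix repressors Hes1 and Hey1, the classical direct targets, also rose. Hes1 was at 5.77, 5.11 and 5.42 in ICN1-GSI, against 4.07, 4.53 and 4.47 in MigR1-GSI (difference 1.08, SE 0.14). Hey1 was already bright with the empty vector, at 9.87, 10.01 and 9.89 in ICN1-GSI, against 8.88, 8.90 and 8.59 in MigR1-GSI (difference 1.14, SE 0.11). Their relatives did not move with them. Hes5 differed by -0.05, Hey2 by -0.23 and Heyl by -0.01, none called (lowest adjusted p 0.695, for Hey2).

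Myc, the transcription factor through which Notch drives growth in this leukaemia, was at 9.52, 9.41 and 9.65 in ICN1-GSI, against 8.08, 8.18 and 7.07 in MigR1-GSI. The arrays did not overlap, MigR1-GSI replicate 3 lay about 1 unit under the other two, and the difference was 1.75 (SE 0.21, adjusted p = 1.05e-05). Deptor, a subunit that inhibits mTOR, was at 5.94, 6.31 and 5.63 in ICN1-GSI, against 4.83, 4.99 and 4.67 in MigR1-GSI (difference 1.13, SE 0.15). Trib2, a pseudokinase adaptor linked to leukaemia, was at 6.45, 6.48 and 6.19 in ICN1-GSI, against 5.71, 5.35 and 5.48 in MigR1-GSI (difference 0.86, SE 0.12). For none of these genes did the groups overlap. The cyclin genes Ccnd1 (-0.05) and Ccnd3 (0.08) and the insulin-like growth factor receptor gene Igf1r (-0.26), which are targets elsewhere, were not called.

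Targets with roles in the T lineage were split. Il2ra, which encodes the alpha chain of the interleukin 2 receptor (CD25), was at 8.08, 7.98 and 7.63 in ICN1-GSI, against 6.66, 6.77 and 6.50 in MigR1-GSI (difference 1.25, SE 0.14). Runx1, a transcription factor of early T cells, was at 7.59, 7.81 and 7.47 in ICN1-GSI, against 6.79, 6.81 and 6.83 in MigR1-GSI (difference 0.82, SE 0.11). Ptcra, which encodes a chain of the pre-T-cell receptor, rose by 0.66 (SE 0.17, adjusted p = 0.0311), the smallest margin of these. The lower targets include Runx3, a relative of Runx1, at 6.60, 6.35 and 6.58 in ICN1-GSI, against 7.29, 7.24 and 6.73 in MigR1-GSI (difference -0.58, SE 0.12). Gata3, a master regulator of T-cell fate, was at 7.89, 8.08 and 7.92 in ICN1-GSI, against 8.65, 8.57 and 8.77 in MigR1-GSI (difference -0.70, SE 0.11). Lztfl1, a regulator of ciliary protein traffic, fell by 1.25 (SE 0.12), and Cdk6, a cell-cycle kinase, by 0.44 (SE 0.11). The groups did not overlap for any of these genes. With 1 array left out, Ptcra and Cdk6 lost their call in 5 of 6 fits (adjusted p up to 0.161 and 0.153), Runx3 in 3 (without ICN1-GSI replicate 2, MigR1-GSI replicate 1 or MigR1-GSI replicate 2; up to 0.0675) and Notch3 in 2 (without ICN1-GSI replicate 1 or MigR1-GSI replicate 3; up to 0.0638). For Ptcra the call held only without ICN1-GSI replicate 2, and so it did for Cdk6.

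**Figure D2:**
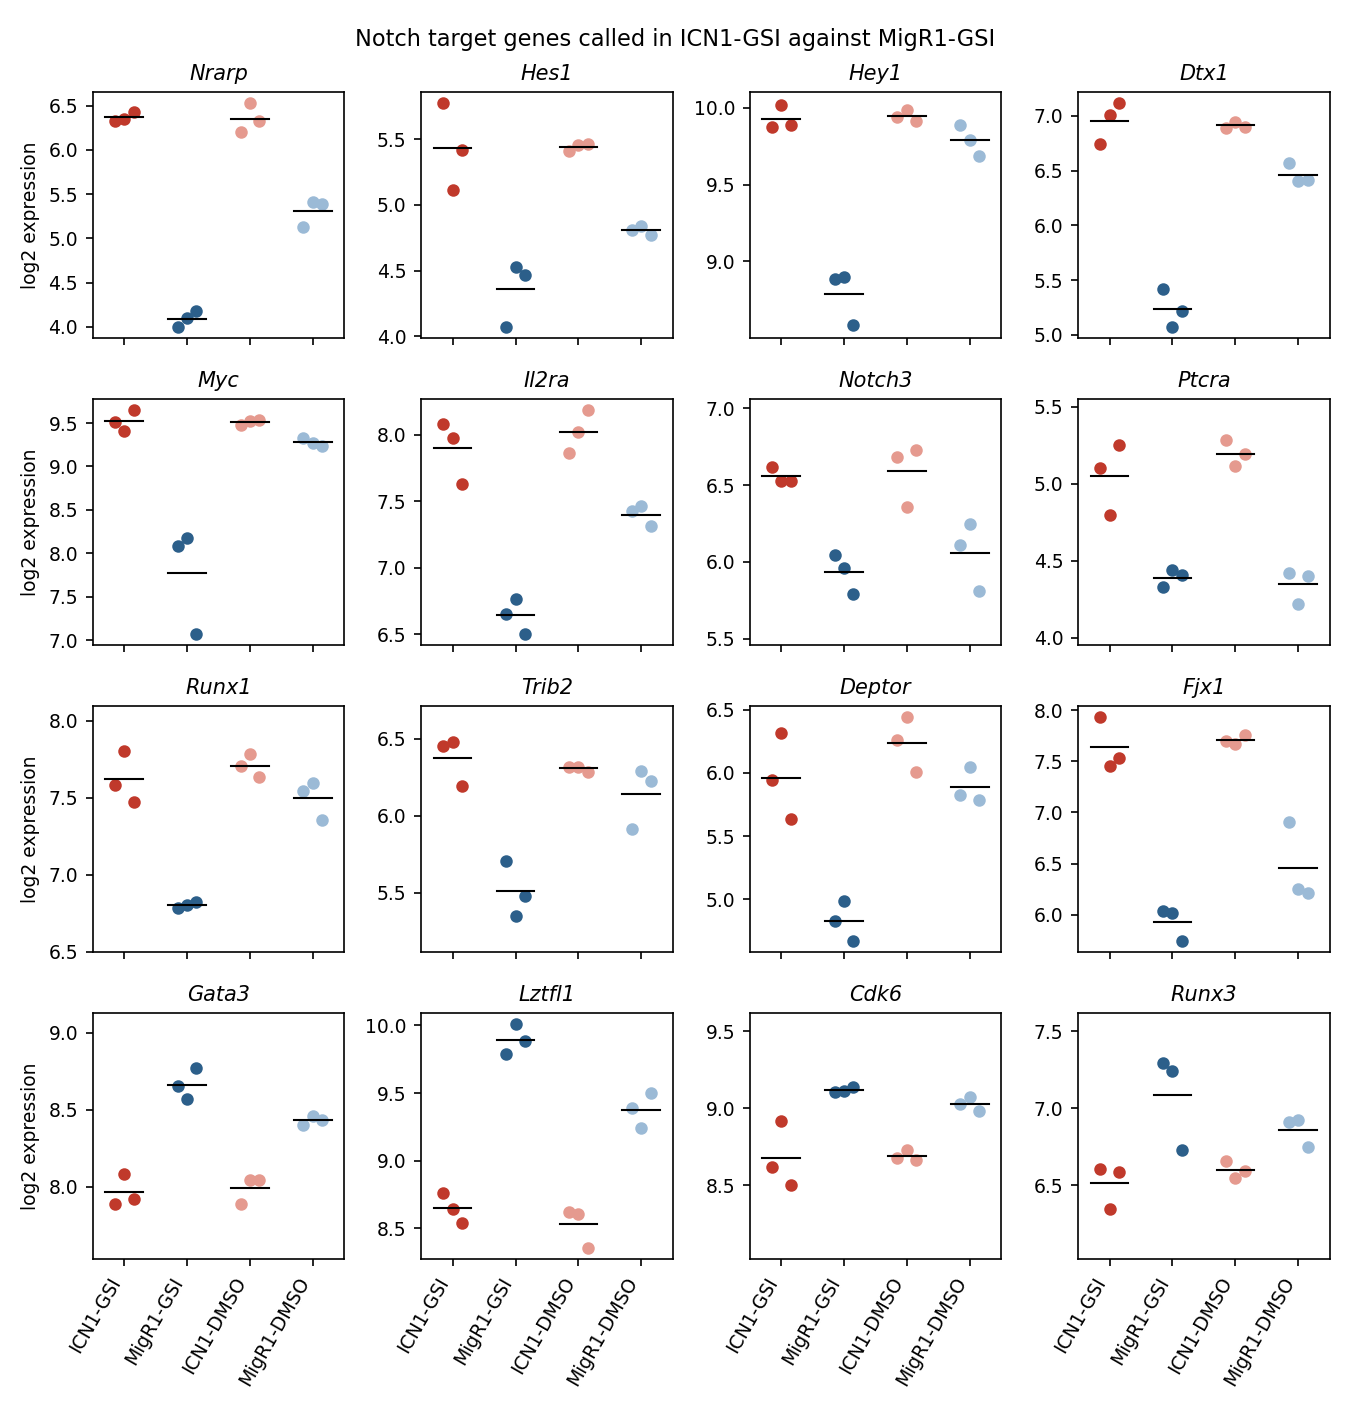
Log2 expression (vertical axis, a separate range for each gene) of Notch target genes called in ICN1-GSI against MigR1-GSI, with 1 point per array in ICN1-GSI, MigR1-GSI, ICN1-DMSO and MigR1-DMSO and a line at each group mean. Nrarp, Dtx1, Myc and Hey1 are lowest in the 3 MigR1-GSI arrays, with Nrarp in MigR1-DMSO between these and both ICN1 groups, while Ptcra is low in both empty-vector groups.

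Among the receptors and ligands, 3 of 9 rose, the construct's own gene Notch1 among them, and 0 fell. Over all genes 1.28% were called higher and 1.07% lower. Besides Notch1 the members that rose were the receptor gene Notch3 and Jag1, which encodes a Notch ligand. Notch3 was at 6.62, 6.52 and 6.53 in ICN1-GSI, against 6.04, 5.96 and 5.79 in MigR1-GSI (difference 0.63, SE 0.14). Jag1 was at 5.95, 6.13 and 6.12 in ICN1-GSI, against 4.87, 5.05 and 4.79 in MigR1-GSI, with a difference of 1.16 (SE 0.13, adjusted p = 4.05e-06). Neither overlapped. The other ligands Dll1 (-0.19), Dll3 (0.19), Dll4 (0.23) and Jag2 (-0.20) were not called, nor were Notch2 (-0.30) and Notch4 (-0.04). Of 32 further pathway components, such as enzymes that process the receptor and cofactors of RBPJ, 0 were called in limma in either direction.

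The highest differences of the comparison came from genes outside the target list. Rag1, a subunit of the recombinase that cuts antigen receptor genes, was at 7.99, 7.90 and 7.36 in ICN1-GSI, against 4.31, 3.56 and 3.60 in MigR1-GSI. This is a 15.2-fold difference, with 2 of the 3 MigR1-GSI arrays under every array median. Rag2, the other subunit, was at 5.64, 5.22 and 4.50 in ICN1-GSI, against 2.66, 2.47 and 2.60 in MigR1-GSI (difference 2.54, SE 0.21, adjusted p = 3.11e-08). Iftap, named for its link to intraflagellar transport, lies beside Rag2 on the chromosome and was at 7.39, 7.28 and 6.22 in ICN1-GSI, against 3.03, 3.67 and 2.93 in MigR1-GSI. In RefSeq the spans of Iftap and Rag2 overlap on opposite strands, so which of them a signal comes from is uncertain. The neighbouring genes were not called. Traf6, the next measured gene after Rag1, differed by 0.13 (adjusted p = 0.879), Prr5l by 0.07 (adjusted p = 0.953), and Lrrc4c, on the far side of Iftap, by -0.09 (adjusted p = 0.919).

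Several other genes went from near background with the empty vector to clear signal with ICN1. Tmem255a, a transmembrane protein gene, was at 6.66, 6.99 and 7.58 in ICN1-GSI, against 3.46, 3.38 and 3.14 in MigR1-GSI (13.4-fold). Zfp750, a zinc finger factor of epidermal differentiation, was at 7.58, 7.41 and 7.84 in ICN1-GSI, against 4.56, 4.31 and 4.62 in MigR1-GSI (8.66-fold, adjusted p = 5.66e-12). Il10, an anti-inflammatory cytokine, was at 5.46, 4.83 and 4.98 in ICN1-GSI, against 2.74, 2.94 and 2.89 in MigR1-GSI, all 3 of which lay under the array medians. The groups lay far apart in each of these genes. Serpinb8, an intracellular protease inhibitor, was at 8.03, 8.01 and 7.95 in ICN1-GSI, against 5.09, 4.71 and 4.33 in MigR1-GSI (9.79-fold, adjusted p = 1.82e-11). Capn5, a calpain protease, was at 7.60, 7.86 and 7.43 in ICN1-GSI, against 5.59, 5.23 and 4.75 in MigR1-GSI (difference 2.44, SE 0.16). Prag1, a pseudokinase scaffold, was at 6.65, 6.13 and 6.70 in ICN1-GSI, against 4.03, 4.42 and 4.15 in MigR1-GSI (difference 2.29, SE 0.19). The arrays of these genes did not overlap either.

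Hpgds, the haematopoietic prostaglandin D synthase, was more variable, at 7.14, 6.97 and 8.48 in ICN1-GSI, against 5.24, 4.74 and 5.50 in MigR1-GSI (difference 2.37, SE 0.38). Ifnz, an interferon zeta gene, rose by 1.89 (SE 0.22), and the zinc finger gene Zfp78 by 1.76 (SE 0.14). Arhgef3 was at 8.03, 7.88 and 7.87 in ICN1-GSI, against 6.51, 6.42 and 5.68 in MigR1-GSI (difference 1.72, SE 0.16). Fjx1, the mouse relative of the Drosophila gene four-jointed, was at 7.93, 7.46 and 7.53 in ICN1-GSI, against 6.03, 6.01 and 5.74 in MigR1-GSI (difference 1.71, SE 0.21). Nupr1, a small nuclear protein induced by stress, rose by 1.66 (SE 0.21), and Pdgfrb, a platelet-derived growth factor receptor, by 1.65 (SE 0.16). All 20 genes that stood highest by size, from Rag1 to Pdgfrb, kept their call in each of the 6 fits with 1 array left out.

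RBPJ binds sites close to the letters GTGNGAA, the longer motif, or TGGGAA, the shorter one. The RefSeq promoters of GRCm38.p6 were searched for both on either strand in the 250 bases before the gene's start, and the motifs overlap where N is G. The longer motif was found for 33 of 202 higher genes with a promoter in the table (16.3%), 13 of 169 lower genes (7.69%) and 13.2% of all measured genes with a promoter there. The shorter motif was found for 26.2%, 16.6% and 23.7% of the same sets. The arrangement of a paired Notch site was searched as 2 copies of the longer motif facing each other 15 to 17 bases apart. Such a pair was found in 2 of 32851 promoters of the table. It was found for 0 of the 202 higher and 0 of the 169 lower genes with a promoter there. Of the 13 Notch targets called higher, 8 had a promoter there, and the others were not searched. The longer motif was found for 1 of these 8 (12.5%), and the shorter motif for 1 (12.5%). Among all measured genes with a promoter the shares were 13.2% and 23.7%. Of the 28 Notch targets or named genes that were called higher, 18 had a promoter in the table and 6 of those held the longer motif. The named genes were picked for the size of their rise, so that count is a description. The promoters below belong to genes among these with 1 promoter in the table, and each is shown because the longer motif, in capitals on either strand, stands close to the start of a gene that rose with ICN1. They are written 5′ to 3′ along the gene's own strand.
Serpinb8, chr1:107589756-107590005, plus strand: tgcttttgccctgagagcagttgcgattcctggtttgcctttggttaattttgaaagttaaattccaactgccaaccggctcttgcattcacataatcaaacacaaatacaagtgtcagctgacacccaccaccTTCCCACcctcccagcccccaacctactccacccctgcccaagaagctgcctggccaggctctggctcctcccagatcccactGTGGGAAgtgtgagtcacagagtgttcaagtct
Rag1, chr2:101649533-101649782, minus strand: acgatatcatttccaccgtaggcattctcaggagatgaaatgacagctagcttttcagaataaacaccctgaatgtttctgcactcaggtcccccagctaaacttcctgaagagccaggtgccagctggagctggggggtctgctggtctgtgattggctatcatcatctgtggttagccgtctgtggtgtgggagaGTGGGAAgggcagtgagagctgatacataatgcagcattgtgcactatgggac
Nupr1, chr7:126625471-126625720, minus strand: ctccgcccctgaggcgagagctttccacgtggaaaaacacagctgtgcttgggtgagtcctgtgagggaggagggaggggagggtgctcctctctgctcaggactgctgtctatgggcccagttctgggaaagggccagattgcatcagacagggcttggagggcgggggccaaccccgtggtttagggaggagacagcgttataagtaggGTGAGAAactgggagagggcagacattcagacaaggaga
Hpgds, chr6:65144731-65144980, minus strand: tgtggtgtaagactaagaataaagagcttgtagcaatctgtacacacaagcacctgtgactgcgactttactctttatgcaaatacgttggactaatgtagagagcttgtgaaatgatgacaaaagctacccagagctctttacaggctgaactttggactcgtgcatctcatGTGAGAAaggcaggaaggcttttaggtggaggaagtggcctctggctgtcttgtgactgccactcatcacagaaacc
Il2ra, chr2:11642542-11642791, plus strand: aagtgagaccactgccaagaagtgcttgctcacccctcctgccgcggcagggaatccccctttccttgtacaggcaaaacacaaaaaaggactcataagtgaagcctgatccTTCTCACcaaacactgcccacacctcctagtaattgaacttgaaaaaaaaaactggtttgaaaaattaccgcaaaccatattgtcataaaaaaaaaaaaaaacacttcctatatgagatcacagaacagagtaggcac

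In Serpinb8 a forward GTGGGAA began 33 bases before the start and a reverse match began 116 bases before it. The forward match began 53 bases before the start of Rag1, 39 before that of Nupr1 and 77 before that of Hpgds, and a reverse match 138 before that of Il2ra. A match of letters does not show binding.

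The largest falls were in genes of migration, secretion and signalling. Ccr8, a chemokine receptor of T cells, was at 4.33, 4.55 and 4.02 in ICN1-GSI, against 7.91, 7.79 and 7.54 in MigR1-GSI. The difference was -3.45 (SE 0.39, adjusted p = 4.05e-06), a level 10.9-fold lower that lay near the array medians. Ccr9, the receptor that guides cells to the thymus and gut, was at 8.0, 7.49 and 6.67 in ICN1-GSI, against 9.78, 9.81 and 9.75 in MigR1-GSI (difference -2.39, SE 0.27). Its neighbour Lztfl1, at 8.76, 8.64 and 8.54 in ICN1-GSI, against 9.79, 10.01 and 9.89 in MigR1-GSI, was lower as well. On the other side of Ccr9, Fyco1 differed by -0.17 (adjusted p = 0.802) and Cxcr6, a further chemokine receptor, by -0.74 (adjusted p = 0.0803). Of 24 receptors of migration 3 fell, Ccr8, Ccr9 and Cx3cr1 (-0.65, SE 0.16), and 0 rose, where 1.07% of all genes were called lower. Cx3cr1 lost its call in 4 of 6 fits with 1 array left out (without ICN1-GSI replicate 1 or 2, or MigR1-GSI replicate 1 or 3; adjusted p up to 0.151).

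Slc15a1, a peptide transporter, was at 6.21, 6.40 and 4.28 in ICN1-GSI, against 8.13, 8.37 and 7.69 in MigR1-GSI. ICN1-GSI replicate 3 carried much of its difference of -2.43 (SE 0.34), which was -1.76 without that array, 3.38-fold in place of 5.41-fold. Cpa3, a carboxypeptidase stored in granules, was at 5.62, 5.35 and 4.74 in ICN1-GSI, against 7.47, 7.60 and 7.61 in MigR1-GSI (difference -2.33, SE 0.26). Cpa3 is known from mast cells, and the other mast cell genes Mcpt8, Fcer1a and Ms4a2 stood at or below the highest array median in ICN1-GSI and in MigR1-GSI. Sytl2, an effector of vesicle traffic, was at 6.51, 6.54 and 5.30 in ICN1-GSI, against 8.19, 8.19 and 8.42 in MigR1-GSI (difference -2.15, SE 0.24). Atp6v0a1, part of the proton pump of vesicles, was at 4.57, 4.60 and 4.44 in ICN1-GSI, against 5.80, 5.74 and 6.11 in MigR1-GSI (difference -1.34, SE 0.12). In all of these the arrays did not overlap. Prf1, which encodes the pore protein of cytotoxic granules, went the other way, at 6.39, 6.07 and 6.22 in ICN1-GSI, against 5.02, 4.64 and 4.62 in MigR1-GSI (difference 1.47, SE 0.16).

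The remaining genes of the 20 largest falls had varied roles, with differences between -1.29 and -1.83. They include Tes, a LIM-domain protein of cell adhesion (-1.83), the lectin receptor gene Clec4e (-1.81), the polysialyltransferase gene St8sia4 (-1.72), Lrrc6, which takes part in assembling ciliary dynein (-1.66), Endou, an endoribonuclease (-1.48), and Palmd (-1.30). Transcriptional regulators were Bhlhe41, a repressor of clock genes (-1.44), Tead1, the DNA-binding partner of YAP (-1.39), and Aff3 (-1.37). Bhlhe41 was at 4.46, 4.02 and 4.27 in ICN1-GSI, against 6.11, 5.54 and 5.41 in MigR1-GSI, so its ICN1-GSI level was within or just above the array medians. Rgs2, which ends signals of G proteins, was at 5.55, 5.42 and 5.07 in ICN1-GSI, against 6.87, 7.37 and 6.53 in MigR1-GSI (difference -1.57, SE 0.24). It was the only one of 12 measured Rgs regulators that was called. Rcbtb2 closed the group (-1.29, SE 0.19). All 20 kept their call in each of the 6 fits with 1 array left out.

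**Figure D3:**
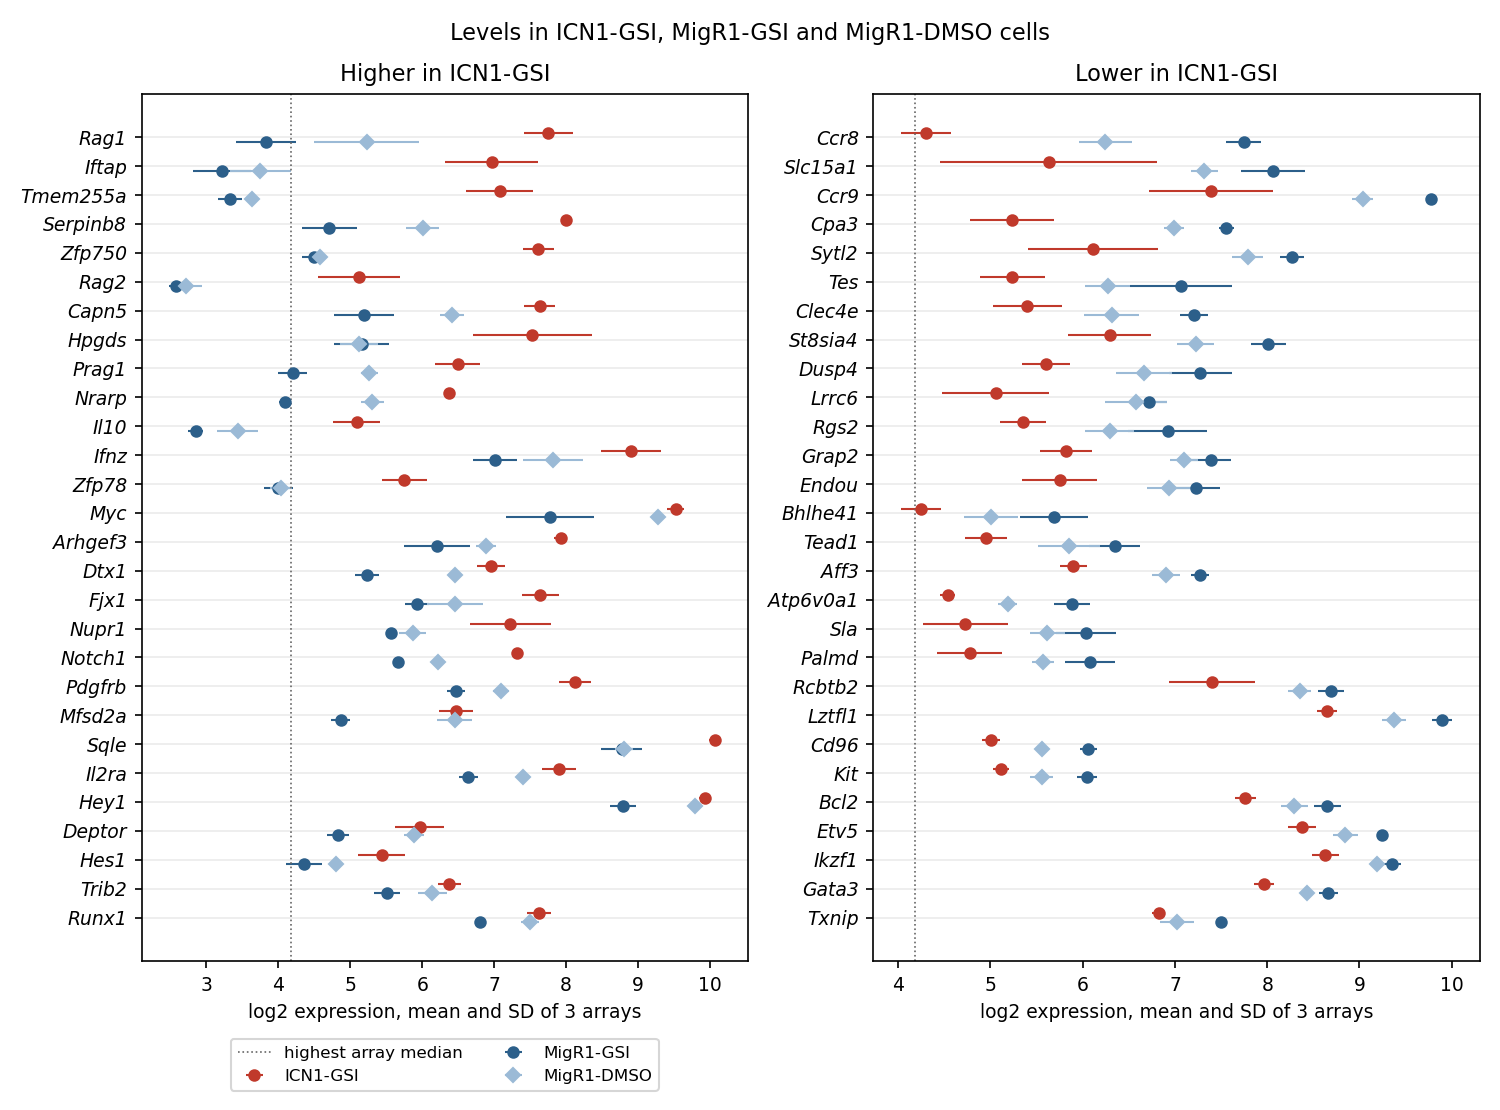
Mean log2 expression with SD over 3 arrays in ICN1-GSI, MigR1-GSI and MigR1-DMSO cells, with genes called higher (left) or lower (right) in ICN1-GSI against MigR1-GSI and a dotted line at the highest array median (4.18). Mfsd2a, Hey1 and Deptor lie within 0.14 of MigR1-DMSO in ICN1-GSI, while Zfp750, Zfp78 and Sqle have close levels in both empty-vector groups and higher ones in ICN1-GSI.

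ICN1-GSI was also set against MigR1-DMSO, the empty-vector cells that received no inhibitor. This comparison shares the ICN1-GSI arrays with the one before, so each is given by its own values. ICN1-GSI differed from MigR1-DMSO in 136 genes (0.682%), 80 higher (0.401%) and 56 lower (0.281%). That number was 80 without ICN1-GSI replicate 3, and, leaving out an array of MigR1-DMSO, 83 without its replicate 1, 78 without its replicate 2 and 81 without its replicate 3. With arrays centred on their medians the split was 54 higher and 23 lower. For one set of targets no difference from MigR1-DMSO was called. The difference was 0.25 for Myc (95% interval -0.19 to 0.68), 0.14 for Hey1 (-0.08 to 0.36), 0.08 for Deptor (-0.24 to 0.40), 0.12 for Runx1 (-0.10 to 0.35) and 0.23 for Trib2 (-0.02 to 0.48). Mfsd2a, a transporter of lysophospholipids, was at 6.73, 6.38 and 6.29 in ICN1-GSI, against 4.97, 4.91 and 4.72 in MigR1-GSI, and differed from MigR1-DMSO by 0.01 (-0.33 to 0.36). Dtx1 (0.49, interval 0.07 to 0.92, adjusted p = 0.671) and Il2ra (0.50, interval 0.20 to 0.79, adjusted p = 0.174) had intervals above 0 and were not called over all genes.

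A second set stood above MigR1-DMSO. Nrarp averaged 6.37 in ICN1-GSI and 5.31 in MigR1-DMSO (difference 1.06, SE 0.11, adjusted p = 2.64e-06). Serpinb8 averaged 8.0 in ICN1-GSI and 6.00 in MigR1-DMSO (difference 1.99, SE 0.17). Capn5 (1.22, SE 0.16), Prag1 (1.23, SE 0.19), Fjx1 (1.18, SE 0.21) and Arhgef3 (1.04, SE 0.16) were above it as well. Hes1 (0.63), Jag1 (0.55) and Ptcra (0.70) were called at adjusted p of 0.032, 0.0488 and 0.0488. Each of them lost the call in 5 of 6 fits with 1 array left out, Hes1 in all but that without ICN1-GSI replicate 2, Jag1 in all but that without MigR1-DMSO replicate 3, and Ptcra in all but that without ICN1-GSI replicate 2 (adjusted p up to 0.287).

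Another set was much higher in ICN1-GSI than in either empty-vector group. Against MigR1-DMSO the differences were 3.45 (SE 0.24) for Tmem255a, 3.22 (SE 0.28) for Iftap, 3.03 (SE 0.15) for Zfp750, 2.53 (SE 0.31) for Rag1, 2.41 (SE 0.38) for Hpgds and 2.40 (SE 0.21) for Rag2. MigR1-GSI and MigR1-DMSO lay close together for some of these genes, with means of 4.50 and 4.58 for Zfp750, 2.58 and 2.72 for Rag2 and 5.16 and 5.12 for Hpgds. They were also close for Zfp78, outside this set (4.0 and 4.03). For Iftap, ICN1-GSI stood 3.75 above MigR1-GSI and 3.22 above MigR1-DMSO. Rag1 was further apart, with means of 3.83 in MigR1-GSI and 5.23 in MigR1-DMSO (difference -1.40, SE 0.31, adjusted p = 0.0872).

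Several of the largest falls were below MigR1-DMSO too. Against MigR1-DMSO, Cpa3 differed by -1.76 (SE 0.26), Sytl2 by -1.67 (SE 0.24) and Ccr9 by -1.64 (SE 0.27), and these calls held with any 1 array left out. Ccr8 differed by -1.95 (SE 0.39), Slc15a1 by -1.69 (SE 0.34) and Lrrc6 by -1.52 (SE 0.29). Ccr8 lost its call without ICN1-GSI replicate 3 or MigR1-DMSO replicate 1 (adjusted p up to 0.0866), Slc15a1 without MigR1-DMSO replicate 1 or 2 (up to 0.0856), and Lrrc6 without ICN1-GSI replicate 3 or MigR1-DMSO replicate 3 (up to 0.0923). Txnip, an inhibitor of glucose uptake, and Ccng2, a cyclin that rises when growth signals drop, followed another pattern. Txnip was at 6.86, 6.86 and 6.74 in ICN1-GSI, against 7.46, 7.53 and 7.50 in MigR1-GSI, and differed from MigR1-DMSO by -0.20 (-0.50 to 0.09). Ccng2 was at 5.11, 5.45 and 5.17 in ICN1-GSI, against 6.26, 6.11 and 5.51 in MigR1-GSI, and differed from MigR1-DMSO by 0.12 (-0.22 to 0.46). Its call against MigR1-GSI was lost in 4 of 6 fits (without ICN1-GSI replicate 1 or 3, or MigR1-GSI replicate 1 or 2; adjusted p up to 0.116).

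Growth and metabolism lists moved in part. Of 53 ribosome biogenesis genes, 51 had a positive difference between ICN1-GSI and MigR1-GSI and 11 were called higher, with 0 lower and a median of 0.37, against -0.01 over all genes. Over all genes 9427 of 19938 had a positive difference and 1.28% were called higher. Rrp1b, a nucleolar protein, was at 7.11, 7.0 and 6.96 in ICN1-GSI, against 6.31, 6.40 and 5.90 in MigR1-GSI (difference 0.81, SE 0.12). Polr1b, a subunit of RNA polymerase I, rose by 0.77 (SE 0.17), Nip7, an assembly factor of the large subunit, by 0.71 (SE 0.14), and Utp15, a processing factor of the small subunit, by 0.59 (SE 0.13). Gnl3, the nucleolar GTPase nucleostemin, rose by 0.49 (SE 0.11). The other called members were Rrs1, Noc3l, Tsr1, Nolc1, Nob1 and Wdr43, between 0.37 and 0.58. MigR1-GSI replicate 3 was the lowest array of its group for all 11. The number called was 2 without ICN1-GSI replicate 1, 6 without ICN1-GSI replicate 2 and 2 without MigR1-GSI replicate 3, and Rrp1b and Nip7 kept their call with any 1 array left out. Nip7 lost it with only the groups compared (adjusted p = 0.113) and with centred arrays. The number was 5 without replicate 3 of every group, 1 with only the groups compared and 1 after each array was centred on its median.

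Of 27 genes of polyamine and nucleotide synthesis, Srm, the spermidine synthase gene, was called (0.58, SE 0.15), and it lost the call in 5 of 6 fits with 1 array left out (adjusted p up to 0.229; kept without MigR1-GSI replicate 2). Of 18 aminoacyl-tRNA synthetases limma called 0, with a median of 0.10. Besides Myc, 0 of the other 12 measured members of the Myc and Max network were called, with Max at 0.26 and the antagonists Mxd4 at -0.23 and Mxi1 at -0.28. In glycolysis 3 of 16 genes rose, where 1.28% of all genes did. Slc2a3, a glucose transporter, was at 7.31, 7.34 and 6.91 in ICN1-GSI, against 6.72, 6.40 and 6.36 in MigR1-GSI (difference 0.69, SE 0.13). The hexokinase gene Hk2 rose by 0.70 (SE 0.15) and the phosphofructokinase gene Pfkp by 0.52 (SE 0.13). Hk2 lost its call without MigR1-GSI replicate 2 (adjusted p = 0.0571) and Pfkp in 4 of 6 fits (without ICN1-GSI replicate 1 or 2, or MigR1-GSI replicate 1 or 3; up to 0.246). With only the groups compared 0 glycolysis genes were called higher (Slc2a3 at adjusted p = 0.127), and with centred arrays 1 was.

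Cholesterol synthesis had a single called gene of 20. Sqle, the squalene epoxidase gene, was at 10.13, 10.10 and 9.97 in ICN1-GSI, against 9.02, 8.84 and 8.45 in MigR1-GSI, a 2.45-fold difference (adjusted p = 4.05e-06). Hmgcs1 (0.16), Fdft1 (-0.02), Lss (0.07) and Srebf2, the regulator of the pathway (-0.03), were not called. Amino acid stress genes were likewise represented by Nupr1 alone, with Atf4 at 0.24 and Asns at -0.06. Nupr1 was at 7.12, 6.72 and 7.84 in ICN1-GSI, against 5.54, 5.57 and 5.59 in MigR1-GSI.

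**Figure D4:**
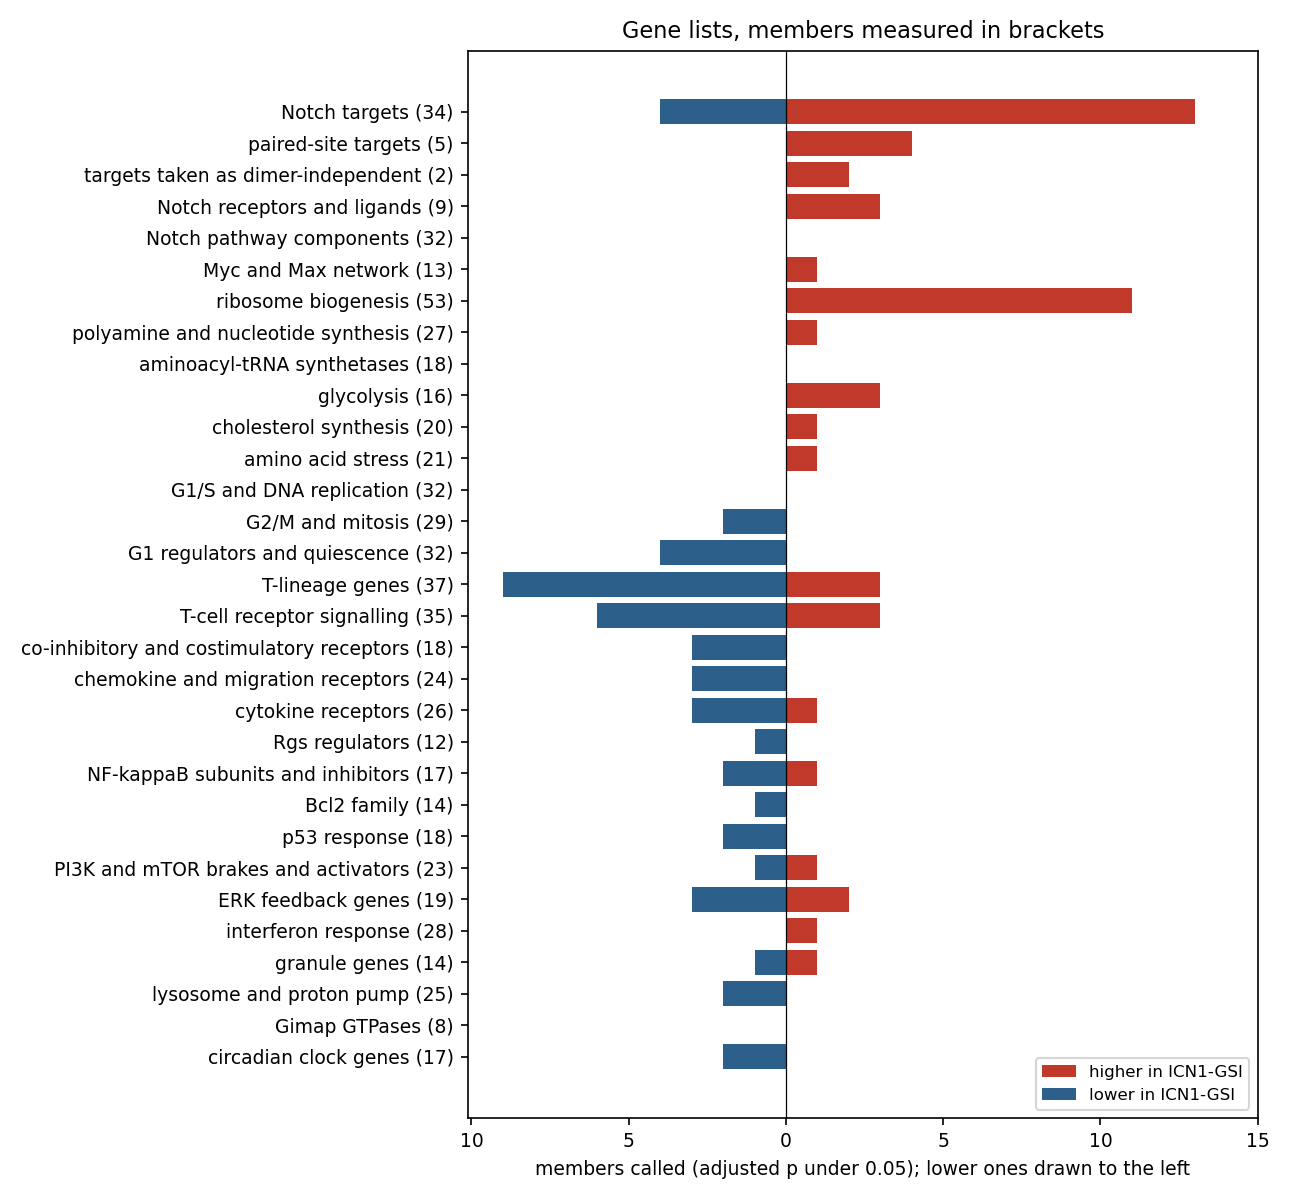
Number of members of each gene list called higher (right, red) or lower (left, blue) in ICN1-GSI, set against MigR1-GSI, with the number measured in brackets. Notch targets (13 higher with Notch1 counted, 4 lower) and ribosome biogenesis (11 higher) lead upward, and T-lineage genes (9 lower) and T-cell receptor signalling (6 lower) lead downward.

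Of 32 genes of G1/S and DNA replication limma called 0. Of 29 G2/M genes 28 had a negative difference, with a median of -0.22, and 2 were called lower. Over all genes 10511 of 19938 had a negative difference and 1.07% were called lower. Between ICN1-DMSO and MigR1-DMSO the median of the G2/M list was -0.002. Ect2, which directs cytokinesis, was at 8.49, 8.87 and 8.35 in ICN1-GSI, against 9.17, 9.30 and 9.16 in MigR1-GSI (difference -0.64, SE 0.13), and kept its call with any 1 array left out, but lost it with only the groups compared (adjusted p = 0.147) and without replicate 3 of every group. Cdc25b, a phosphatase that starts mitosis, differed by -0.60 (SE 0.16) and lost its call in each of those 6 fits (adjusted p up to 0.236). The number called in this list was 4 without ICN1-GSI replicate 2, and 1 without ICN1-GSI replicate 1, ICN1-GSI replicate 3, MigR1-GSI replicate 1 or MigR1-GSI replicate 2. It was 0 with only the groups compared. Among G1 regulators and genes of quiescence 4 of 32 fell (Cdk6, Txnip, Ccng2 and Sesn3, a stress-induced inhibitor of mTOR, -0.60), and this number was 2 without ICN1-GSI replicate 1, 1 without ICN1-GSI replicate 3, 2 without MigR1-GSI replicate 1 and 2 without MigR1-GSI replicate 2.

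T-lineage genes went both ways, with 3 of 37 higher (Rag1, Rag2 and Runx1) and 9 lower, and a median of -0.15. Over all genes 1.28% were called higher and 1.07% lower. Kit, the stem cell factor receptor of early progenitors, was at 5.17, 5.02 and 5.16 in ICN1-GSI, against 6.15, 5.93 and 6.07 in MigR1-GSI (difference -0.93, SE 0.12, adjusted p = 2.39e-05). Ikzf1, the lymphoid factor Ikaros, was at 8.55, 8.80 and 8.54 in ICN1-GSI, against 9.32, 9.27 and 9.46 in MigR1-GSI (difference -0.72, SE 0.11). Themis, a thymocyte selection protein, was at 8.78, 8.95 and 8.51 in ICN1-GSI, against 9.35, 9.51 and 9.66 in MigR1-GSI (difference -0.76, SE 0.14). For none of these did the groups overlap. Cd27 fell by 0.64, Cd69 by 0.72, Tox by 0.44 and Cd4 by 0.86, the last with ICN1-GSI arrays between 3.25 and 3.47, under every array median. Cd69 lost its call in 3 of 6 fits (without ICN1-GSI replicate 3, or MigR1-GSI replicate 1 or 2; adjusted p up to 0.106) and Tox in 2 (without ICN1-GSI replicate 3 or MigR1-GSI replicate 2; up to 0.0752). Without MigR1-GSI replicate 2 the lower members numbered 6. The lower members numbered 4 with only the groups compared and 5 with centred arrays. With only the groups compared, Themis (adjusted p = 0.0637) and Cd27 (adjusted p = 0.0842) lost their calls, and Cd27 did so also with centred arrays. Cd3e, a chain of the T-cell receptor complex, was at 10.36, 10.46 and 10.28 in ICN1-GSI, against 10.42, 10.33 and 10.24 in MigR1-GSI (difference 0.04, adjusted p = 0.955).

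Of 35 genes of T-cell receptor signalling 6 fell, 3 rose and 26 were not called, where 1.07% of all genes were called lower and 1.28% higher. With only the groups compared 2 were called lower (Grap2 and Sla) and 0 higher. Grap2, the adaptor that links LAT to Lcp2, was at 5.89, 6.06 and 5.51 in ICN1-GSI, against 7.43, 7.15 and 7.59 in MigR1-GSI (difference -1.57, SE 0.17). Lcp2 itself, the adaptor SLP-76, was at 8.44, 8.45 and 8.29 in ICN1-GSI, against 9.01, 8.85 and 8.98 in MigR1-GSI (difference -0.56, SE 0.10). Both partners were thus lower without overlap, but Lcp2 lost its call with only the groups compared (adjusted p = 0.114). Ptprc, the phosphatase CD45, fell by 0.66 (SE 0.12), the kinase gene Prkcq by 0.59 (SE 0.12), Sla, an adaptor that dampens the signal, by 1.31 (SE 0.25), and Dgka, which removes diacylglycerol, by 0.47 (SE 0.12). The higher members were the transcription factor genes Nfatc1 (0.56), Nr4a1 (0.66) and Egr1 (0.80). Egr1 was at 4.80, 5.43 and 5.76 in ICN1-GSI, against 4.50, 4.31 and 4.78 in MigR1-GSI, so its arrays nearly touched. With 1 array left out, the higher members numbered 1 without ICN1-GSI replicate 1, ICN1-GSI replicate 2, MigR1-GSI replicate 2 or MigR1-GSI replicate 3, and 2 without either remaining array. The lower members numbered 4 without ICN1-GSI replicate 3, where Prkcq (adjusted p = 0.0561) and Dgka were lost, and Dgka lost its call in 4 of the 6 fits (adjusted p up to 0.201).

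Feedback genes of the ERK pathway were split as well, 2 of 19 higher and 3 lower, where 1.28% of all genes were higher and 1.07% lower. Dusp1, an immediate early phosphatase, was at 7.31, 7.04 and 7.45 in ICN1-GSI, against 5.70, 5.69 and 5.62 in MigR1-GSI (difference 1.60, SE 0.17, adjusted p = 2.95e-06). Dusp4, a nuclear phosphatase of ERK, was at 5.75, 5.74 and 5.30 in ICN1-GSI, against 7.51, 7.43 and 6.89 in MigR1-GSI (difference -1.68, SE 0.18). Members of one phosphatase family thus moved in opposite directions. Dusp6, the cytoplasmic phosphatase of ERK, was at 7.21, 6.92 and 6.61 in ICN1-GSI, against 8.21, 7.86 and 7.48 in MigR1-GSI (difference -0.94, SE 0.19), and Etv5, a transcription factor induced by ERK, fell by 0.87 (SE 0.12). Dusp6 lost its call with only the groups compared (adjusted p = 0.0886) and with centred arrays. Egr1, which this list shares with the one before, lost its call in 4 of 6 fits (without ICN1-GSI replicate 2 or 3, or MigR1-GSI replicate 1 or 2; adjusted p up to 0.259).

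Bcl2, which blocks cell death, was at 7.77, 7.88 and 7.65 in ICN1-GSI, against 8.61, 8.81 and 8.53 in MigR1-GSI (difference -0.89, SE 0.11), the only one of 14 family members called. Of 18 co-inhibitory and costimulatory receptors 3 fell, Cd27, Cd96 and Pdcd1, where 1.07% of all genes were called lower. Cd96, which restrains T and natural killer cells, was at 5.11, 4.93 and 4.98 in ICN1-GSI, against 6.05, 6.16 and 5.98 in MigR1-GSI (difference -1.05, SE 0.15). Pdcd1, the receptor PD-1, differed by -0.99 (SE 0.23). Pdcd1 lost its call without ICN1-GSI replicate 3, MigR1-GSI replicate 1 or MigR1-GSI replicate 2 (adjusted p up to 0.151). Ctla4 (-0.01), Lag3 (-0.29) and Icos (-0.20) were not called. Among cytokine receptors Il2ra rose, and Kit, the interferon gamma receptor gene Ifngr2 (-0.80, SE 0.16) and the interleukin 9 receptor gene Il9r (-0.65, SE 0.17) fell, of 26. Il9r lost its call without ICN1-GSI replicate 3, MigR1-GSI replicate 1 or MigR1-GSI replicate 2 (adjusted p up to 0.253). Ifngr2 lost its call with only the groups compared (adjusted p = 0.116).

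Of 17 NF-kappaB genes 1 rose and 2 fell. For this and the next lists, 1.28% of all genes were called higher and 1.07% lower. Nfkb2, the subunit of the noncanonical branch, was at 6.12, 5.91 and 6.11 in ICN1-GSI, against 5.02, 5.25 and 5.22 in MigR1-GSI (difference 0.88, SE 0.13). The subunit gene Rel fell by 0.65 (SE 0.13) and the inhibitor gene Tnfaip3 by 0.49 (SE 0.11). Neither of the lower genes was called without ICN1-GSI replicate 3 (Rel at adjusted p = 0.0572), and Tnfaip3 was lost also without ICN1-GSI replicate 2 or MigR1-GSI replicate 2 (up to 0.106). In the p53 response Gadd45a (-0.55, SE 0.11) and Trp53inp1 (-0.69, SE 0.11) fell, of 18. Irf9, a subunit of the interferon-activated factor ISGF3, was the 1 gene called of 28 in the interferon response (0.92, SE 0.18). With only the groups compared, Gadd45a (adjusted p = 0.176), Trp53inp1 (adjusted p = 0.0673) and Irf9 (adjusted p = 0.13) lost their calls. Of 8 Gimap GTPases limma called 0. Among 25 lysosome and proton pump genes Ctsd, the protease cathepsin D (-0.56), fell besides Atp6v0a1, and among 17 clock genes Arntl, the clock activator BMAL1 (-0.65), fell besides Bhlhe41. Ctsd lost its call in 4 of 6 fits with 1 array left out (adjusted p up to 0.262) and Arntl in 3 (up to 0.0752).

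Whether ICN1 acted alike with and without GSI was asked in ICN1-DMSO and MigR1-DMSO, which share no array with the main comparison. Across treatments, same-numbered arrays deviated together, with correlations of 0.42, 0.16 and 0.59 between MigR1-GSI and MigR1-DMSO. Between ICN1-GSI and ICN1-DMSO the correlations were 0.27, 0.08 and 0.35. The labels do not say whether both treatments used the same transduced cells, so the agreement of sign below is a description. ICN1-DMSO differed from MigR1-DMSO in 145 genes (0.727%), 84 higher (0.421%) and 61 lower (0.306%). Same-numbered arrays of these groups deviated together (correlations of 0.25, 0.14 and 0.42), and with a replicate block, a fit chosen after seeing the data, 297 genes were called, 176 higher and 121 lower. Without 1 array of either group the number was 79 to 105, and it was 79 without MigR1-DMSO replicate 2, 80 without ICN1-DMSO replicate 3, 91 without MigR1-DMSO replicate 3 and 95 without MigR1-DMSO replicate 1. Of the 255 genes called higher under GSI, 247 (96.86%) had a positive difference in DMSO, and of the 214 lower genes 211 (98.6%) a negative one, against 60.94% of all genes with the same sign. The genes called higher in both numbered 74, which is 29.02% of the GSI list and 88.1% of the DMSO list. Those called lower in both numbered 56, 26.17% of the GSI list and 91.8% of the DMSO list, and 0 genes were called in opposite directions. In DMSO the medians were smaller in size, at 0.37 and -0.44 there for the genes chosen as higher and lower under GSI, which had 0.72 and -0.74 under GSI. The genes were chosen for their values under GSI, so that gap is a description. Across all genes the differences under GSI and in DMSO had r of 0.58, and genes are not independent replicates.

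**Figure D5:**
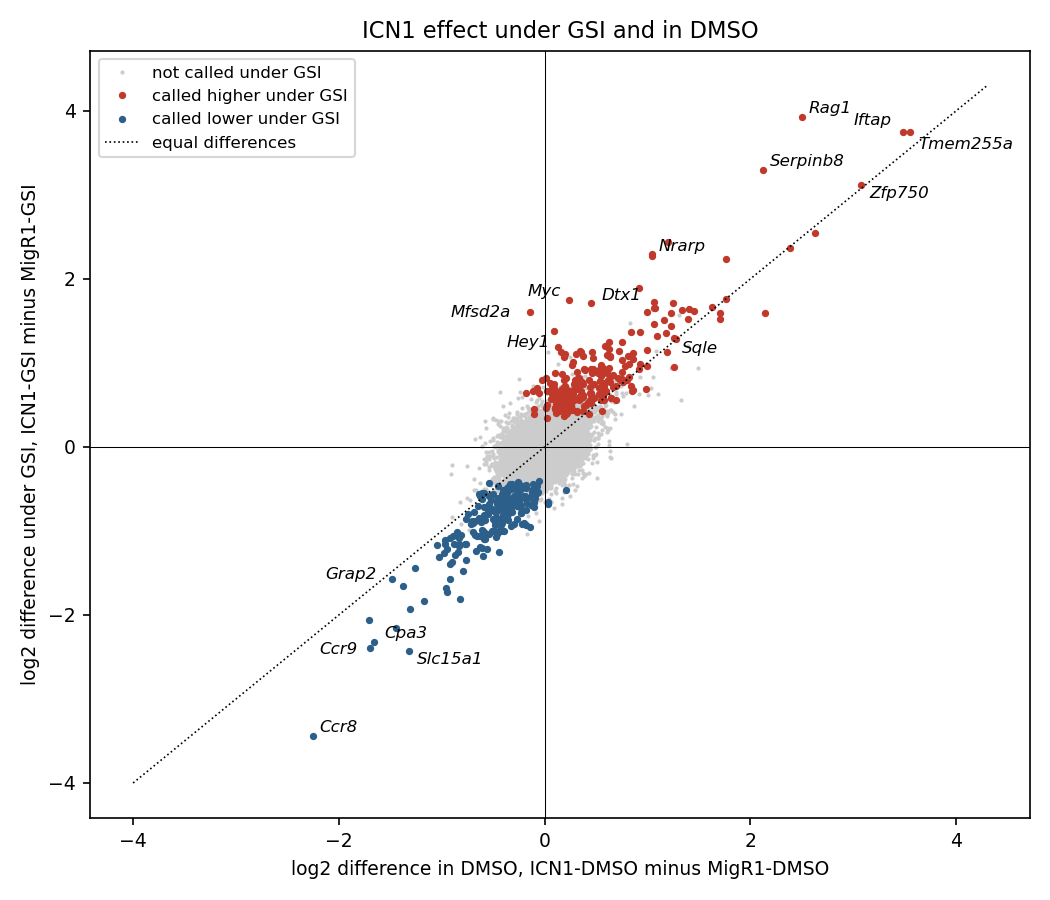
Log2 difference between ICN1 and the empty vector under GSI (vertical axis) and in DMSO (horizontal axis), 1 point per gene, with genes called under GSI in red (higher) and blue (lower) and a dotted line of equal differences. Zfp750, Iftap and Tmem255a lie near the line, while Mfsd2a, Myc, Dtx1 and Hey1 lie far above it.

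The test of the difference between both effects called 3 genes (0.015%), all with a larger rise under GSI, and 636 passed an unadjusted p of 0.05. With a replicate block it called 7. Mfsd2a differed by 1.60 under GSI and by -0.14 in DMSO, a gap of 1.74 (SE 0.24, adjusted p = 0.00176). Nrarp differed by 2.28 under GSI and by 1.05 in DMSO, a gap of 1.23 (SE 0.15, adjusted p = 0.000664). Hey1 differed by 1.14 under GSI and by 0.16 in DMSO, a gap of 0.98 (SE 0.15, adjusted p = 0.00901). In all of them the ICN1 groups had similar means, 6.46 in ICN1-GSI and 6.31 in ICN1-DMSO for Mfsd2a, 6.37 and 6.35 for Nrarp, and 9.93 and 9.95 for Hey1. Hey1 lost its call without ICN1-GSI replicate 2 or MigR1-DMSO replicate 1 (adjusted p up to 0.0568), and 5 genes were called without MigR1-GSI replicate 1. Myc had a gap of 1.51 (95% interval 0.90 to 2.13) and Dtx1 of 1.27 (0.67 to 1.87), and neither was called over all genes (adjusted p = 0.13 and 0.41). At the other end, the gap was 0.04 for Zfp750 (-0.41 to 0.49), 0.04 for Sqle (-0.39 to 0.46), -0.01 for Zfp78 (-0.42 to 0.41), 0.03 for Nupr1 (-0.60 to 0.66) and -0.09 for Rag2 (-0.69 to 0.52), intervals that still allow a moderate difference.

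R1984A-GSI cells received the same inhibitor and carried the form of intracellular Notch1 described as defective in dimerization. ICN1-GSI was set against them directly. Effects of dimerization, of the construct's level and of the cells that carried each construct cannot be told apart in this contrast. ICN1-GSI differed from R1984A-GSI in 220 genes (1.1%), 64 higher (0.321%) and 156 lower (0.782%). The number was 115 without ICN1-GSI replicate 3 (56 higher and 59 lower), 122 without R1984A-GSI replicate 2 and 132 without R1984A-GSI replicate 3. The split was 42 higher and 57 lower with arrays centred on their medians, and 123 and 165 after a second quantile normalization. Notch1 itself averaged 7.32 in ICN1-GSI and 7.07 in R1984A-GSI, a difference of 0.25 that was not called (adjusted p = 0.617).

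Several of the largest rises of ICN1-GSI over MigR1-GSI were also higher than in R1984A-GSI. Iftap was at 7.39, 7.28 and 6.22 in ICN1-GSI, against 3.81, 3.18 and 2.54 in R1984A-GSI (difference 3.79, SE 0.28). Tmem255a was at 6.66, 6.99 and 7.58 in ICN1-GSI, against 3.37, 3.69 and 3.60 in R1984A-GSI (difference 3.52, SE 0.24). Rag1 was at 7.99, 7.90 and 7.36 in ICN1-GSI, against 4.59, 4.79 and 4.08 in R1984A-GSI (difference 3.27, SE 0.31). None of these overlapped, and Zfp750 (2.75, SE 0.15), Rag2 (2.59, SE 0.21) and Il10 (1.82, SE 0.20) were higher in ICN1-GSI likewise. Among the targets, Fjx1 was at 7.93, 7.46 and 7.53 in ICN1-GSI, against 6.16, 6.03 and 5.61 in R1984A-GSI (difference 1.71, SE 0.21). Deptor was at 5.94, 6.31 and 5.63 in ICN1-GSI, against 4.65, 4.55 and 4.64 in R1984A-GSI (difference 1.35, SE 0.15). Myc was at 9.52, 9.41 and 9.65 in ICN1-GSI, against 8.51, 8.50 and 8.14 in R1984A-GSI (difference 1.14, SE 0.21, adjusted p = 0.00522). Hes1 (0.71, SE 0.14) and Ptcra (0.85, SE 0.17) were higher too. Hes1 lost its call without ICN1-GSI replicate 1 or R1984A-GSI replicate 2 (adjusted p up to 0.0686), and Ptcra without ICN1-GSI replicate 3 or R1984A-GSI replicate 1 or 3 (up to 0.0693).

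For other targets no difference between ICN1-GSI and R1984A-GSI was called. It was 0.02 for Hey1 (95% interval -0.20 to 0.24), 0.25 for Nrarp (0.03 to 0.47, adjusted p = 0.461), 0.22 for Dtx1 (-0.20 to 0.65) and -0.24 for Il2ra (-0.53 to 0.06). Mfsd2a was at 6.73, 6.38 and 6.29 in ICN1-GSI, against 7.32, 7.28 and 7.44 in R1984A-GSI, and so lower in ICN1-GSI (difference -0.88, SE 0.17, adjusted p = 0.00603), a call lost without ICN1-GSI replicate 3 (adjusted p = 0.0543). Ccr8 differed by 0.08 (-0.71 to 0.88) and Ccr9 by -0.56 (-1.12 to 0.01). Of the genes lower in ICN1-GSI than in R1984A-GSI, Tmem273, a transmembrane protein gene, was at 5.34, 5.56 and 5.29 in ICN1-GSI, against 7.93, 7.34 and 7.27 in R1984A-GSI (difference -2.11, SE 0.34). Rgs1, a relative of Rgs2, was at 4.33, 4.28 and 3.81 in ICN1-GSI, against 5.75, 5.73 and 5.65 in R1984A-GSI (difference -1.57, SE 0.17). Slc15a1 (-2.15), Lrrc6 (-1.54), the unconventional myosin gene Myo1d (-1.47) and the receptor gene Mas1 (-1.34) followed. Lrrc6 lost its call without ICN1-GSI replicate 3 (adjusted p = 0.068).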

How the data were processed

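Total RNA of T6E cells was read on 24 Affymetrix Mouse Gene 1.0 ST arrays, 3 in each of 8 groups. The authors deposited a log2 value for each probe set on each array, made with the R packages oligo and limma per the submitters' processing notes. The steps and versions are not given in the sources used here, and the log2 scale was read from the range of the values (1.28 to 13.47). The platform annotation gives 1 symbol for 21789 of 35556 probe sets, several for 1621 and none for 12146. For each of 19938 genes the probe set brightest on average over the 24 arrays was kept. No dim gene was left out.

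Group means over the 24 arrays were fitted together by limma 3.58.1 under R 4.3.3, with 16 residual and 6.56 prior degrees of freedom. Tests were two-sided and Benjamini-Hochberg adjusted over all genes. All adjusted p-values are from this fit, and a gene was called under 0.05. The fit was tested on simulated data. The number of arrays limits the precision. Genes named are the 20 largest called rises and 20 largest called falls with arrays that did not overlap, 6 each way for the comparisons with MigR1-DMSO and R1984A-GSI and for the test between treatments, and members of 38 gene lists, without clone names, small RNAs and receptor segments. Promoter letters are from RefSeq (GRCm38.p6). The lists and members were chosen with earlier results of these data known. Alternatives were a fit of only the groups compared, a replicate block, arrays left out, a filter on dim genes, other scalings, array weights, the mean of probe sets and a variance trend. The deviations of same-numbered arrays of ICN1-GSI and MigR1-GSI had correlations of 0.39, 0.062 and 0.458. With a cut-off of 0.1, which 0.062 did not reach, the numbers were not taken to pair them. The other correlations passed it, and whether same-numbered arrays were handled together was not tested. With a replicate block 960 genes were called, in place of 469. The correlations of ICN1-DMSO and MigR1-DMSO (0.25, 0.14 and 0.42) all passed it, and their main fit had no block either.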

Additional observations from a re-analysis of the deposited data

Results flagged for a closer look

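For 3 genes the ICN1 effect under GSI differed from that in DMSO by the test of the difference itself. The gap was 1.74 for Mfsd2a, 1.23 for Nrarp and 0.98 for Hey1 on the log2 scale (limma adjusted p = 0.00176, 0.000664 and 0.00901). Mfsd2a and Nrarp kept the call in all 12 fits with 1 array left out, and Hey1 in 10 of them. Without replicate 3 of every group, Mfsd2a alone was called. Groups of 3 arrays are too small for a check of single outlying samples.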

How the results depend on the processing

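No named or listed gene called against MigR1-GSI changed direction under any alternative run. Fitting only the groups compared left 167 genes for ICN1-GSI against MigR1-GSI (469 with all groups), 63 for ICN1-GSI against MigR1-DMSO (136) and 51 for ICN1-GSI against R1984A-GSI (220), with fewer arrays to estimate the spread. With a replicate block the numbers were 960, 271 and 577, and 7 for the test between treatments (3). For ICN1-DMSO against MigR1-DMSO the block, added after seeing the data, gave 297 (145 without it), and leaving out 1 array gave 79 to 105. Without replicate 3 of every group, 129 genes differed between ICN1-GSI and R1984A-GSI, and 1 in the test between treatments. With each array centred on its median the numbers were 270, 77 and 99. With array weights they were 255 for MigR1-DMSO, 739 for R1984A-GSI and 8 between treatments. The cause was not tested. With 1 array left out the numbers ranged from 351 to 411 for MigR1-GSI, 78 to 109 for MigR1-DMSO, 115 to 184 for R1984A-GSI and 2 to 5 between treatments. The filter on dim genes, a second quantile normalization, the mean of probe sets and a variance trend kept the number for MigR1-GSI between 476 and 604. Of 108 named or listed genes called against MigR1-GSI, 47 lost the call when only the groups compared were fitted, 32 with centred arrays, 23 without replicate 3 of every group, 14 to 20 with 1 array left out, 6 with array weights and 1 with the variance trend. The remaining alternatives ended 0 of the limma calls. Genes near the array medians have differences of uncertain size.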
